A study of Homo sapiens with 2 samples.

Results

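The genes described are the Hedgehog pathway members GLI2, GLI1, GLI3, SUFU, PTCH1, SMO, HHIP, SHH and IHH, taken by gene name from both libraries' gene tables, which makes 9 of 36953 genes. The set was chosen by the gene-level read ratio of GLI2 between the libraries, with those of the other members already known, so these ratios are given as a description. The libraries hold polyadenylated RNA of 2 human lines, 1 library each. MIP/5FU is a single clone that grew out when MIP101 was passaged in rising 5-fluorouracil (5-FU), a pyrimidine analogue that blocks thymidylate synthesis. It has a 10-fold higher IC50 than MIP101 and was kept in medium with 5 µM 5-FU. MIP101 is the parent, a 5-FU-sensitive colorectal cancer line from a liver metastasis. Both lines went without drug and antibiotics for about 48 hours before RNA was taken. No difference below has a replicate check, and differences of the clone, the culture or the library cannot be told apart from those of resistance.

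In the Hedgehog pathway, a secreted ligand such as Sonic or Indian hedgehog (SHH, IHH) binds the receptor Patched 1 (PTCH1). This frees Smoothened (SMO), which acts at the primary cilium to release the GLI transcription factors from their inhibitor SUFU. GLI1 and GLI2 act mainly as activators and GLI3 mainly as a repressor. GLI1, PTCH1 and HHIP, a membrane protein that traps ligand, are textbook targets of the pathway, and the last pair dampens it. In the intestine, epithelial cells make the ligands and the mesenchyme beneath them holds most of the responding cells.

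Reads assigned to genes numbered 109693681 in MIP/5FU and 200141071 in MIP101. Ratios are MIP/5FU over MIP101 in shares of these reads, with exact 95% intervals. The reads come from PCR without molecular identifiers, so each interval covers counting error only. A gene was called where it had at least 100 reads over both libraries, a ratio of at least 2-fold and an interval that leaves out no change. The protocol as described marks no strand. Markers fitted the label of an epithelial line: all 9 epithelial markers had at least 100 reads over both libraries, and together they held 8761 RPM (reads scaled by the sum of gene reads) in MIP/5FU and 7859 RPM in MIP101. The 12 fibroblast and smooth muscle markers summed to 31.0 RPM in MIP/5FU and 29.4 RPM in MIP101, with COL1A2, DCN, LUM and PDGFRA at 0 reads in both libraries. The 3 endothelial markers summed to 0.0365 RPM in MIP/5FU and 0.135 RPM in MIP101, with CDH5 at 0 reads in both. The 5 immune markers summed to 0.930 RPM in MIP/5FU and 0.490 RPM in MIP101, and the 3 hepatocyte markers to 0.620 RPM in MIP/5FU and 0.340 RPM in MIP101, with APOA1 and TTR at 0 in both.

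3 reference sequences bear on the results. The PTCH1 window runs from 250 bases before to 50 bases after a RefSeq transcription start on GRCh38.p14, at chr9:95509217-95509516 on the minus strand. It is shown because it is the only one of 12 member windows with the core letters that GLI proteins bind, GACCACCCA or its reverse complement TGGGTGGTC, here in capitals. The HHIP window lies at chr4:144645906-144646205 on the plus strand of the same build. It is shown, without capitals, because few reads lay on the exons that follow it. The HHIP join holds the last 40 bases of exon 3 in lower case, from chr4:144658907-144658946, and the first 40 bases of exon 4 in capitals, from chr4:144659637-144659676, in the GENCODE 29 transcript ENST00000296575 on GRCh38. It marks where most reads on HHIP began.
PTCH1 window: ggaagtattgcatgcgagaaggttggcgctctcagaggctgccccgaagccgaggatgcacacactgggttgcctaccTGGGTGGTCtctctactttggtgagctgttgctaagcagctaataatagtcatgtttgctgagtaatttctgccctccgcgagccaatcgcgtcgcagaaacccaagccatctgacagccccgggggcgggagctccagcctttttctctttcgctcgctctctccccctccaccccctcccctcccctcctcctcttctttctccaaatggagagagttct
HHIP window: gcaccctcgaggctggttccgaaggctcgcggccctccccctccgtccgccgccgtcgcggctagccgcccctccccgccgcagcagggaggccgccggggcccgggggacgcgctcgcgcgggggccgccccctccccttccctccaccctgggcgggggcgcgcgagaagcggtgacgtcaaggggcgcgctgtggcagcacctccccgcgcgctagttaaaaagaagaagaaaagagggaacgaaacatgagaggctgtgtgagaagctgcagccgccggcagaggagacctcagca
HHIP exon 3 to exon 4: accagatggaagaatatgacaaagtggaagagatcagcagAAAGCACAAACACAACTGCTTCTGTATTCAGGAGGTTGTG
The motif was sought on both strands, and 83 of 35116 windows of 300 bases in the same table hold it, 0.236%. In the PTCH1 window it began 172 bases before the start, which lies 605 bases upstream of the GENCODE 29 start of ENST00000331920. 7 of the 9 members had a window, PTCH1 5 of them and GLI2 2. GLI1 and GLI3 had none. The windows of GLI2, SUFU, SMO, HHIP, SHH and IHH and the other 4 of PTCH1 did not hold these letters.

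GLI2, a zinc finger activator of the pathway, had the highest ratio of the members. It had 473 reads in MIP/5FU and 89 in MIP101, which was 9.65-fold higher in MIP/5FU (7.72 to 12.3). That placed it at rank 12 from the highest of 15382 genes with at least 100 reads. Reads covered 89.3% of its exonic bases in MIP/5FU and 43.2% in MIP101, and the authors called it expressed in MIP/5FU and not in MIP101. Its level was low even where it was higher, at 0.674 RPKM (RPM per kilobase of exon; 0.615 to 0.738) in MIP/5FU, against 0.0695 RPKM (0.0558 to 0.0855) in MIP101. Among protein-coding genes this was percentile 42.9 of the authors' normalized coverage per base in MIP/5FU and 29.01 in MIP101. In a bulk culture, fewer cells with a transcript and less of it per cell cannot be told apart. GLI2 lies on chromosome 2 at 121271335 to 121466321 on the plus strand of hg18, in 14 exons.

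The other GLI factors were also low in both libraries, and went opposite ways. GLI1, an activator whose own transcription is a common readout of the pathway, had 141 reads in MIP/5FU and 88 in MIP101, 2.92-fold higher in MIP/5FU (2.22 to 3.86). Its coverage rested on 78.9% of bases in MIP/5FU and 62.5% in MIP101. It shares 8 bases with ARHGAP9 on the opposite strand, which had 47 reads in MIP/5FU and 185 in MIP101, a ratio in the other direction. By reads on annotated junctions, 14 in MIP/5FU and 5 in MIP101, the log2 ratio of GLI1 was 2.34 when scaled by the total of such junction reads and 2.27 when scaled by all gene reads, against 1.54 by all its reads. The second scaling of junction reads was added after seeing the data. GLI3, which in its shortened form represses targets, had 127 reads in MIP/5FU and 528 in MIP101, 2.27-fold lower in MIP/5FU (1.87 to 2.79). The authors called neither GLI1 nor GLI3 expressed in either library.

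SUFU, the inhibitor that holds GLI proteins in the cytoplasm, was well covered and near even between the lines. It had 3631 reads in MIP/5FU and 6120 in MIP101, a log2 ratio of 0.11 (0.05 to 0.17). Its level was 6.25 RPKM in MIP/5FU and 5.77 RPKM in MIP101, and the authors called it expressed in both. SUFU and GLI3 overlap small noncoding genes and pseudogenes, none with over 27 reads in a library.

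The receptor PTCH1 and the ligand trap HHIP, both negative regulators, were lower in MIP/5FU. PTCH1 had 3323 reads in MIP/5FU and 12859 in MIP101, 2.12-fold lower in MIP/5FU (2.04 to 2.20), and the authors called it expressed in both. By annotated junctions, 324 reads in MIP/5FU and 1226 in MIP101, the log2 ratio of PTCH1 was -0.98, under the 2-fold line, when scaled by the total of junction reads, and -1.05, past it, when scaled by all gene reads. HHIP had 112 reads in MIP/5FU and 2599 in MIP101, 12.7-fold lower in MIP/5FU (10.5 to 15.5). The authors called HHIP expressed in MIP101 and not in MIP/5FU. It stood at rank 44 from the lowest of the 15382 genes, with the percentile of its normalized coverage among protein-coding genes at 37.1 in MIP/5FU and 55.7 in MIP101. PTCH1 lies on chromosome 9 at 97245083 to 97319068 on the minus strand of hg18, and HHIP on chromosome 4 at 145786623 to 145879337 on the plus strand.

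SMO and the ligands were near the limit of detection. SMO had 28 reads in MIP/5FU and 36 in MIP101, a ratio of 1.42-fold (0.834 to 2.39). SHH had 14 reads in MIP/5FU and 17 in MIP101, 1.51-fold (0.686 to 3.24). IHH had 25 reads in MIP/5FU and 50 in MIP101, 0.921-fold (0.541 to 1.503). None of these 3 genes reached 100 reads over both libraries, the authors called none of them expressed, and the interval of each holds no change. SHH had 13 read equivalents on its last exon in MIP/5FU and 17 in MIP101, 0 in either library on its first, and 0 reads on its 2 annotated junctions.

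Of the 6 members with at least 100 reads, GLI2 and GLI1 were called higher, GLI3, PTCH1 and HHIP lower, and SUFU neither. Over all 15382 genes, 2.53% were called higher, 3.09% lower and 5.62% in either direction, with a median log2 ratio of 0.03. Since the members were taken up with these ratios known, nothing is read from the count. The called members nearest to the 2-fold line were PTCH1 at -1.08 and GLI3 at -1.18 on the log2 scale, and SUFU, the 1 not called, stood at 0.11.

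**Figure D1:**
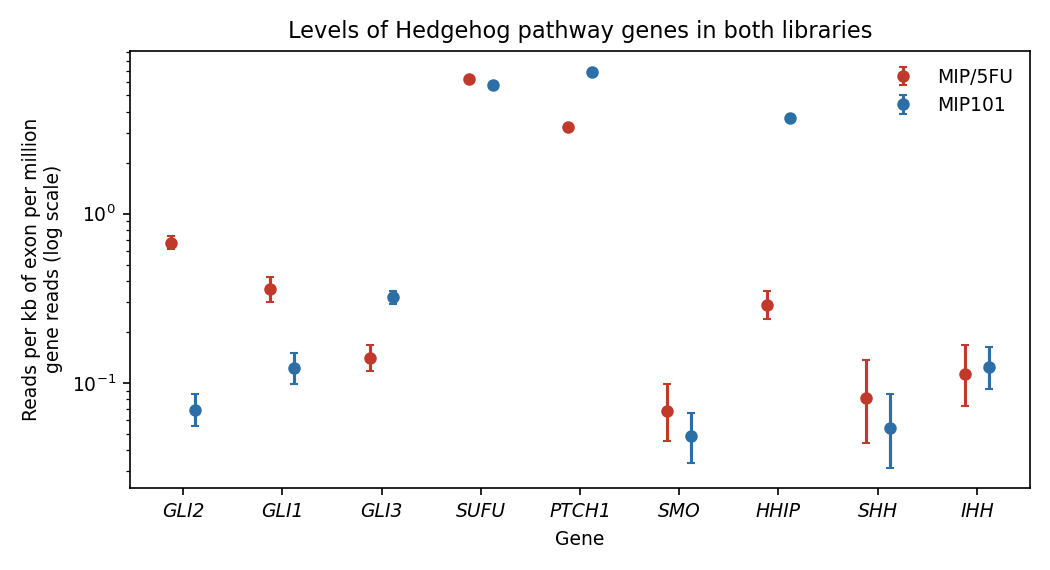
Levels of the 9 members in MIP/5FU (left point of each pair) and MIP101 (right point), as RPKM on a log axis, with exact 95% counting intervals and 1 library each. SUFU and PTCH1 lay above 3 in both libraries, HHIP was at 0.289 in MIP/5FU and 3.67 in MIP101, and GLI2 was at 0.674 in MIP/5FU and 0.0695 in MIP101.

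Within each library the order of the members per kilobase differed at the top and in the middle. In MIP/5FU it ran SUFU, PTCH1, GLI2, GLI1, HHIP, GLI3, IHH, SHH and SMO. GLI1 and HHIP did not differ beyond their counting intervals, nor did neighbours from GLI3 downwards. In MIP101 it ran PTCH1, SUFU, HHIP, GLI3, IHH, GLI1, GLI2, SHH and SMO. There the top 4 were apart, IHH and GLI1 overlapped, and so did neighbours from GLI2 downwards. GLI2 was thus at rank 3 of 9 in MIP/5FU and at rank 7 in MIP101, and HHIP was at rank 5 in MIP/5FU and at rank 3 in MIP101.

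The rest of the pathway was described by 87 genes in 5 lists, of which 85 are in the files and 71 had at least 100 reads. Of these 1 was called higher and 5 lower, beside 2.53% of all genes higher and 3.09% lower. Their median log2 ratio was -0.11, against 0.03 over all genes. The lists were set with earlier results of these data known. Nothing is therefore read from these counts or from those of each list below.

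Among genes that make and release ligand, DISP1, which exports lipid-modified ligand from the producing cell, had 486 reads in MIP/5FU and 2274 in MIP101, 2.56-fold lower (2.32 to 2.83). It was the only one of 4 called, on a list median of -0.12. HHAT, which attaches palmitate to the ligands, was 1.56-fold lower (1.39 to 1.76) and was not called. DISP2 had 339 reads in MIP/5FU and 444 in MIP101, which in shares was 1.39-fold higher in MIP/5FU (1.21 to 1.61). SCUBE3 had 85 in MIP/5FU and 117 in MIP101, 1.33-fold (0.990 to 1.77), and neither was called.

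None of 5 receptors and coreceptors was called, on a list median of -0.22. LRP2, an endocytic coreceptor, had 225 reads in MIP/5FU and 819 in MIP101, 1.99-fold lower (1.72 to 2.32), just short of the line and past it under the other scalings. CDON, a ligand-binding coreceptor, had 5447 reads in MIP/5FU and 6998 in MIP101, a ratio of 1.42-fold (1.37 to 1.47). GAS1, a membrane-anchored coreceptor, had 79 reads in MIP/5FU and 207 in MIP101, 1.43-fold lower (1.10 to 1.89).

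Among 19 genes of the cilium and of transduction, IFT172 was called lower, on a list median of -0.14. IFT172, a subunit of the intraflagellar transport complex that builds cilia, had 187 reads in MIP/5FU and 2475 in MIP101, 7.24-fold lower (6.25 to 8.46). WDR35, another intraflagellar transport subunit, had 1098 reads in MIP/5FU and 3950 in MIP101, 1.97-fold lower (1.84 to 2.11), also past the line under the other scalings. KIFAP3, a subunit of the kinesin motor of cilia, had 672 reads in MIP/5FU and 1969 in MIP101, 1.61-fold lower (1.47 to 1.76). EVC, a protein at the base of the cilium, had 77 reads in MIP/5FU and 82 in MIP101, 1.71-fold higher in MIP/5FU (1.24 to 2.37).

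None of 27 kinase and turnover genes was called, on a list median of -0.04. Their most extreme ratios were those of NUMB, 1.55-fold lower (1.501 to 1.598), and CSNK1E, 1.39-fold higher (1.36 to 1.43). PRKACA, the catalytic subunit of the kinase that primes GLI proteins for processing, had 11001 reads in MIP/5FU and 26100 in MIP101. In shares that was 1.30-fold lower (1.27 to 1.33). PRKACB, the other catalytic subunit on the list, had 5105 reads in MIP/5FU and 7285 in MIP101, 1.28-fold higher in MIP/5FU (1.23 to 1.33).

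The list of known Hedgehog or GLI target genes held both directions. Of 16 with at least 100 reads, 1 was called higher and 3 lower, on a list median of -0.20. BCL2, which blocks apoptosis, had 2077 reads in MIP/5FU and 1459 in MIP101, 2.60-fold higher (2.43 to 2.78). MYCN, a proliferation factor, had 40 reads in MIP/5FU and 459 in MIP101, 6.22-fold lower (4.55 to 8.92). ABCG2, a drug efflux pump, had 419 reads in MIP/5FU and 3392 in MIP101, 4.43-fold lower (4.01 to 4.92). CCND2, a cyclin of the G1 phase, had 262 reads in MIP/5FU and 2066 in MIP101, 4.31-fold lower (3.799 to 4.934). These genes answer to other pathways too. Of the textbook targets among the members, GLI1 was called higher, and PTCH1 and HHIP lower, HHIP on reads mostly from exons 4 to 13.

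**Figure D2:**
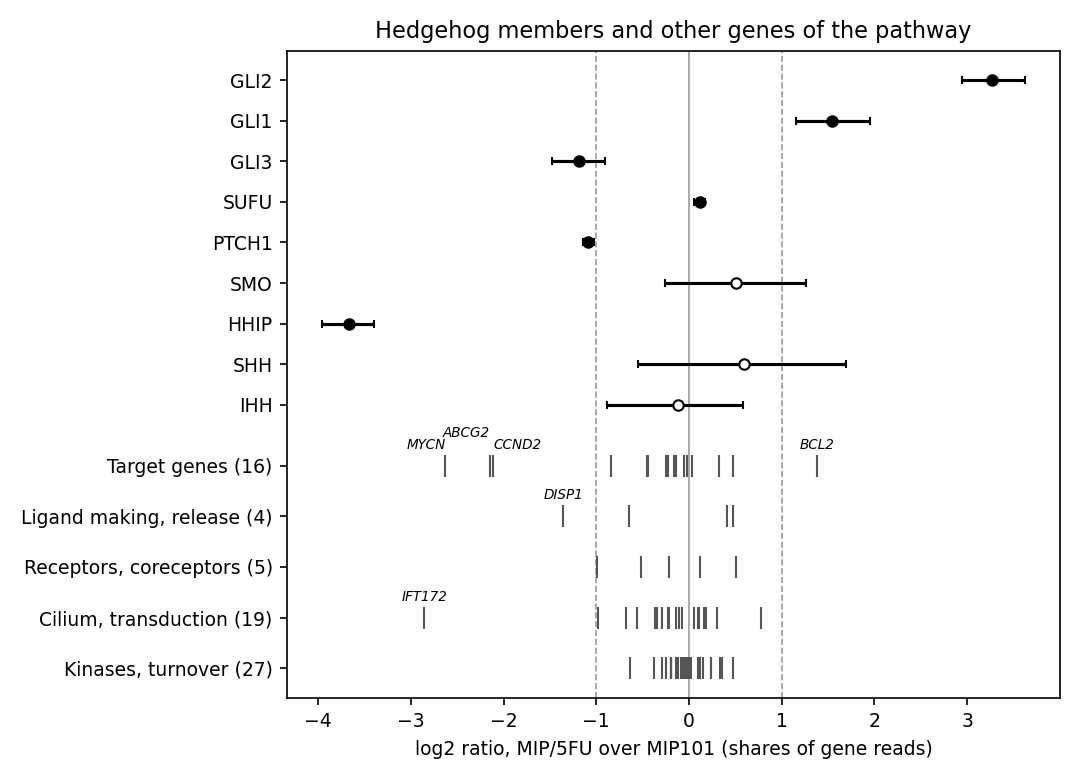
Log2 ratios of MIP/5FU over MIP101 for the 9 members (points with 95% counting intervals; open points had under 100 reads over both libraries) and for the tested genes of 5 pathway lists (ticks, number in brackets; called genes named). Dashed lines mark 2-fold. GLI2 was at 3.27 and HHIP at -3.66.

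The coverage of GLI2 ran over the whole gene in MIP/5FU. Exons 1 to 9 held 81 read equivalents (coverage divided by the mean bases per read) in MIP/5FU and 24 in MIP101, a log2 ratio of 2.60 (1.95 to 3.34). Exons 10 to 14 held 394 in MIP/5FU and 65 in MIP101, a log2 ratio of 3.46 (3.09 to 3.87), and these intervals overlap. Exon region 10a, of 150 bases, had a normalized coverage per base of 5.04 in MIP/5FU and 0 in MIP101. That was 10 read equivalents in MIP/5FU and 0 in MIP101, too few to compare this region with the rest of the gene. Annotated junctions of GLI2 carried 16 reads in MIP/5FU and 2 in MIP101. The 1600-base noncoding end of exon 14, which belongs to 1 of 4 annotated transcripts, had the highest coverage of its regions of 20 bases or more in MIP/5FU at 9.16, against 0.75 in MIP101.

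**Figure D3:**
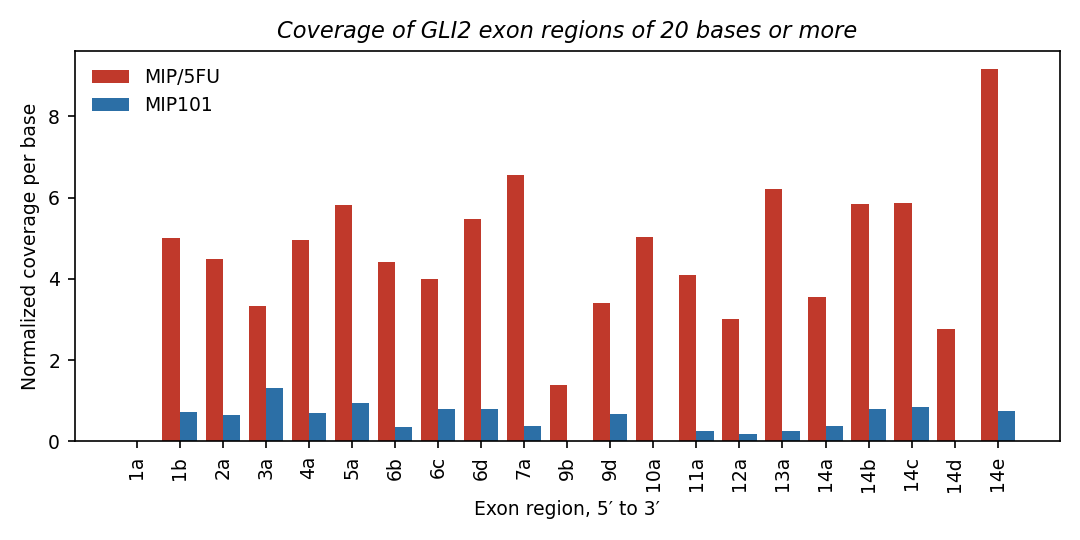
Normalized coverage per base of GLI2 exon regions of at least 20 bases, 5′ to 3′, as the authors scaled it, in MIP/5FU (left bar) and MIP101 (right bar), 1 library each. All plotted regions but 1a had coverage in MIP/5FU, and no region exceeded 1.31 in MIP101.

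Whether single exons or junctions departed from their gene was measured by a splicing index, a feature's log2 ratio less the gene's own. A feature was called at an absolute index of at least 1 with an interval that leaves out 0. This took 0 of 55 exon regions, 42 junctions, 6 transcripts and 1 exon-intron boundary with enough reads. The 42 junctions were those of SUFU (11), PTCH1 (23) and HHIP (8). GLI2, GLI1 and GLI3 had 0 junctions with enough reads. Of exon regions GLI2 had 3, all in exon 14, and GLI1 and GLI3 had 1 each, so most of their splicing was not tested. Over all genes the call took 0.158% of exon regions as relatively higher and 0.108% as relatively lower in MIP/5FU. For junctions these were 0.055% and 0.0988%, for transcripts 0.492% and 0.19%, and for boundaries 0.738% and 0.119%. Along the exons, all 27 regions of PTCH1 with enough reads had a ratio below 0, from -1.61 to -0.68, and all 10 of HHIP, from -4.69 to -2.98. Regions of PTCH1 with fewer reads went both ways, among them 1a at 1.14 and 4a at -1.06. Region 27b, in the last exon, was at 1.00, on 22 read equivalents in MIP/5FU and 20 in MIP101. None of these had enough reads for a call. The 3 regions of GLI2 with enough reads ran from 2.92 to 3.59. The transcript of SUFU ending in exon 11 had its junction from exon 10 to exon 11 at 4 reads in MIP/5FU and 2 in MIP101, against 29 reads in MIP/5FU and 34 in MIP101 for exon 10 to exon 12.

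Most reads of HHIP lay on exons 4 to 13 in both libraries. Those exons held 109 read equivalents over 2252 bases in MIP/5FU and 2594 in MIP101. Exons 1 to 3, with 1284 bases, held 3 read equivalents in MIP/5FU and 13 in MIP101. In the annotation 279 bases of exon 1, 193 of exon 2 and 157 of exon 3 are coding. Whether the RNA seen here encodes the whole protein was not tested. In MIP101, which alone had enough HHIP reads for the comparison with other genes, this was a coverage per base of 0.414 on exons 1 to 3 and 46.6 on exons 4 to 13, so the first came to 0.890% of the second. In MIP/5FU it came to 4.65%, on 3 read equivalents. In MIP101 only 180 of 8655 genes with at least 6 exons and 500 reads, 2.08%, had a ratio as low, against a median of 65.9%.

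The junctions of HHIP showed the same limit. The junctions of exon 1 to 2, 2 to 3 and 3 to 4, the last printed above, had 0 reads in both libraries. That allows up to 3 reads each per library. From exon 4 to 5 there were 0 reads in MIP/5FU and 14 in MIP101, and from exon 5 to 6, 0 in MIP/5FU and 24 in MIP101. The 7 junctions from exon 6 to exon 13 had 1 to 5 reads each in MIP/5FU and 42 to 57 each in MIP101. No read crossed the intron-exon boundary before exon 4 in either library. In MIP101 99.01% of the 202 bases of exon 4 were covered, at a normalized coverage of 36.0 per base against 73.7 on exon 5. The HHIP exon lengths of the files equal those of the GENCODE 29 transcript in 12 of 13 exons. Restricted to exons 4 to 13, the log2 ratio was -3.70 (-4.00 to -3.43), close to that of the whole gene. This comparison was chosen after the exon values were seen.

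**Figure D4:**
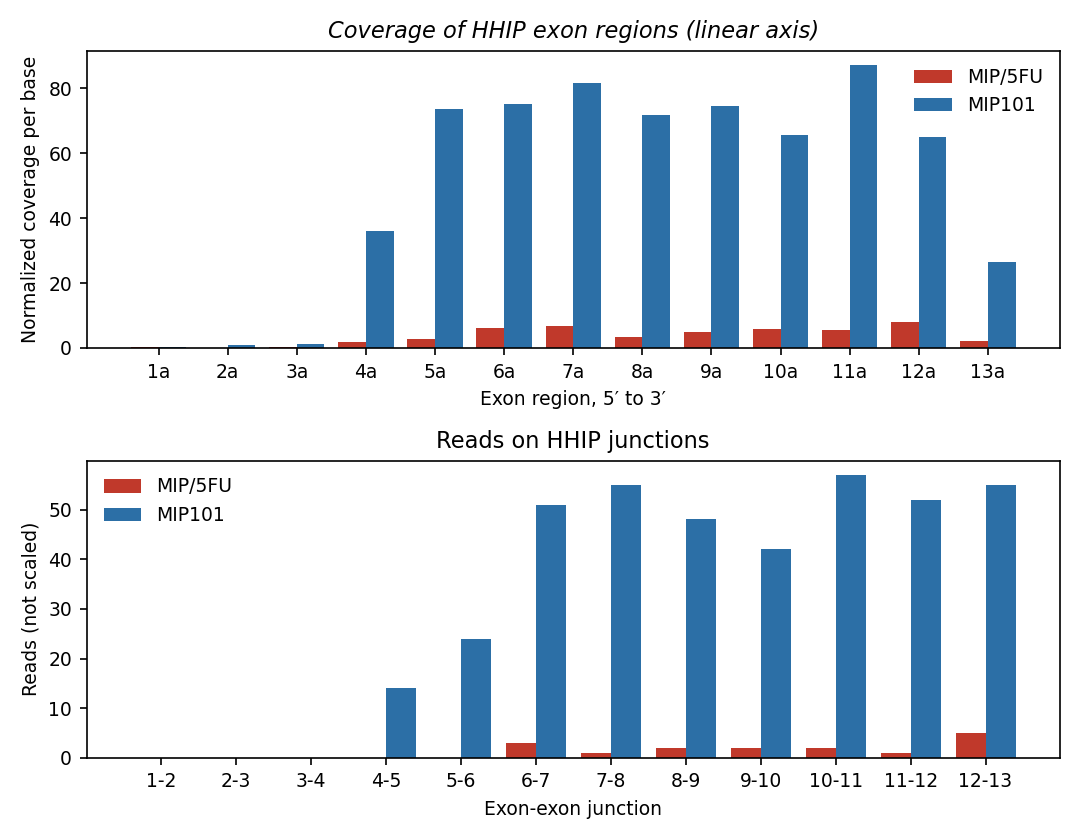
Top: normalized coverage per base of HHIP exon regions, 5′ to 3′. Bottom: reads on the 12 annotated exon-exon junctions, not scaled for depth. MIP/5FU is the left bar and MIP101 the right bar. In both libraries coverage was near 0 on exons 1 to 3, and the first 3 junctions had 0 reads.

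PTCH1 has 4 alternative first exon regions in the annotation, 1a to 4a, which all join exon 5 and have 497, 201, 189 and 263 bases in turn. They held 54 read equivalents in MIP/5FU and 132 in MIP101, against 3264 in MIP/5FU and 12705 in MIP101 on exons 5 to 27. By the measure used for HHIP, the first 3 exons of PTCH1 had 7.72% of the coverage per base of its others in MIP101. There 356 of 8655 genes, 4.11%, were as low. In MIP/5FU the value was 13.6%, with 413 of 8183 genes, 5.05%, as low. Regions 1a to 3a are alternatives to each other, and 4a counts among the other exons. These values therefore cannot be set against that of HHIP, whose exons 1 to 3 follow each other in 1 transcript. Region 1a, the most upstream, held 31.5% of the first-exon sum in MIP/5FU (exact Clopper-Pearson interval 19.5 to 45.6%) and 10.6% in MIP101 (5.92 to 17.2%). Region 2a held 25.9% in MIP/5FU (14.96 to 39.65%) and 52.3% in MIP101 (43.4 to 61.0%). These intervals did not overlap. Region 3a held 29.6% in MIP/5FU (18.0 to 43.6%) and 15.9% in MIP101 (10.1 to 23.3%), and region 4a 12.96% in MIP/5FU (5.37 to 24.9%) and 21.2% in MIP101 (14.6 to 29.2%), and both pairs of intervals overlapped. The shares were compared after the exon values were seen, and are not corrected for length. Normalized coverage per base in MIP/5FU was 2.61 on 1a, 5.59 on 2a, 6.38 on 3a and 2.04 on 4a. In MIP101 it was 1.23 on 1a, 14.8 on 2a, 4.73 on 3a and 4.66 on 4a.

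In read equivalents, region 1a had 17 in MIP/5FU and 14 in MIP101, though the MIP101 library held more reads in all, and region 2a had 14 in MIP/5FU and 69 in MIP101. The junction from 2a to exon 5 had 3 reads in MIP/5FU and 18 in MIP101, and the ones from 1a, 3a and 4a had 1 to 3 reads each in MIP/5FU and at most 1 in MIP101. Reads also ran from these exons into the intron. At the end of 2a there were 2 in MIP/5FU and 12 in MIP101, and at the end of 3a 3 in MIP/5FU and 1 in MIP101. Read equivalents do not tell spliced from unspliced reads, so the shares above are shares of coverage. Region 2a held enough reads for the splicing index, -0.31 (-1.99 to 0.98), and was not called. Regions 1a, 3a and 4a had too few.

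**Figure D5:**
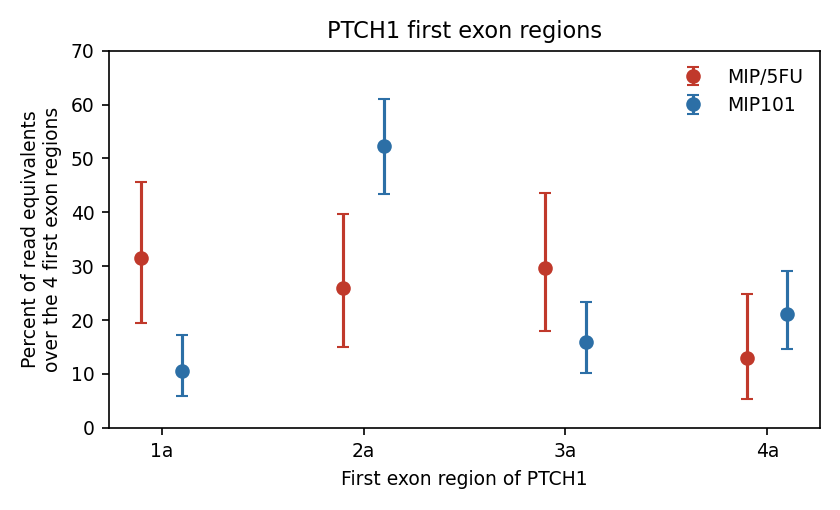
Share of each first exon region of PTCH1 in the read equivalents over its 4 first exon regions, in percent with exact 95% Clopper-Pearson intervals, for MIP/5FU (left point, sum of 54) and MIP101 (right point, sum of 132). Region 2a held 25.9% in MIP/5FU and 52.3% in MIP101, and region 1a 31.5% in MIP/5FU and 10.6% in MIP101. Read equivalents do not tell spliced from unspliced reads, and the shares are not corrected for region length.

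GLI3 showed no coverage on the exon regions of exons 1 and 2. Those exons, with only 210 bases, held 0 read equivalents in either library, while exons 3 to 15 held 127 in MIP/5FU and 526 in MIP101. A junction of exon 1 to exon 9, which no annotated transcript holds, had 0 reads in MIP/5FU and 1 in MIP101. With exon 3 included, the first 3 exons of GLI3 in MIP101 had 60.5% of the coverage per base of its others. The median over genes there was 65.9%. Of the 51 bases of the first exon of GLI1, 0% were covered in MIP/5FU and 11.76% in MIP101.

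The members' ratios were set beside those of the 10 nearest protein-coding genes with at least 100 reads on each side, to see whether a stretch of chromosome moved with them. Around GLI2 the median log2 ratio of 20 neighbours was 0.06, from -2.13 to 1.37, and none reached the 3.27 of GLI2. INHBB, the nearest on the left and a subunit of activin B and inhibin B, had the 1.37, and TFCP2L1 on the right had 0.29. Around HHIP the median was -0.05, from -0.87 to 0.80, with none as low as -3.66. Around PTCH1 the median was 0.06, from -5.83 to 0.80, and around GLI3 0.15, from -3.24 to 0.64. In each case 1 of 20 neighbours was lower than the member. C7orf10, the nearest to GLI3 on the left, had -1.04, near the -1.18 of GLI3, and C7orf25 on the right had 0.26. Around GLI1 the median was 0.24, from -1.10 to 1.46, with none higher than 1.54. Of 20 neighbours each, 3 around GLI1 were called higher and 1 lower, around GLI3 0 and 2, and around PTCH1 0 and 1. Around GLI2 1 was called higher and 1 lower, and around HHIP and SUFU 0 were called. Over all genes 2.53% were called higher and 3.09% lower. Around SUFU the median was 0.16, from -0.28 to 0.69.

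The protein-coding genes with a ratio nearest to that of GLI2 over the 2 libraries were CRIP2 at a log2 ratio of 3.21, VAV3 at 3.16, PPFIA4 at 3.08, EPB41L3 at 3.51 and IGF2BP3 at 3.00. CRIP2 had 154 reads in MIP/5FU and 30 in MIP101, and VAV3, a guanine nucleotide exchange factor, had 593 reads in MIP/5FU and 121 in MIP101. With 1 library a line, this likeness is a nearness of 1 number.

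Of 6 fibroblast and smooth muscle markers with at least 100 reads, 4 had a log2 ratio above 0 and 2 below, on a median of 0.36. None was called higher and 1 was called lower. ACTA2, a smooth muscle actin, was at 1.90-fold in MIP/5FU over MIP101 (1.73 to 2.07), TAGLN at 1.44-fold (1.23 to 1.67) and PDGFRB, a growth factor receptor, at 1.32-fold (1.24 to 1.41). COL3A1, a fibrillar collagen, was 23.6-fold lower in MIP/5FU (17.4 to 33.9), with 38 reads against 1659 in MIP101. Among the epithelial markers KRT20, a keratin of differentiated intestinal cells, was 6.77-fold higher (6.17 to 7.44) and VIL1, a brush border protein, 2.34-fold lower (2.28 to 2.41). CD14, a monocyte marker, was at 1.92-fold (1.32 to 2.79) and ALB, a liver marker, at 1.82-fold (1.28 to 2.59), and neither was called. The part of these differences in the ratios of the Hedgehog genes was not tested.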

How the data were processed

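Per the labels, cDNA was made from polyadenylated RNA of 1 library per line with random hexamers and 10 cycles of PCR. The authors placed reads on features of Ensembl release 53, per the file names, and genome build hg18, per the submitters' processing notes. The aligner's name and settings are not given in the sources used here. Raw read counts are deposited for genes, junctions and boundaries. All files hold coverage as deposited: bases of reads summed over each feature, and a signal per base that the authors scaled by library. Deposited percent values give the share of a feature covered, and a deposited call of 0 or 1 gives the authors' view of expression above background. For exon regions and transcripts, where the design had assumed counts and the files hold coverage only, read equivalents were coverage divided by a library's bases per read, 39.8 in MIP/5FU and 40.4 in MIP101.

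Ratios are log2 of shares of gene reads after adding 0.5 reads, with exact conditional binomial 95% intervals. The splicing index had a 99.9% interval joined from those of feature and gene, and needed 50 reads over both libraries for exon regions and transcripts, 20 for junctions and boundaries, and a gene with 200 reads in all and 10 in each. Levels had exact Poisson intervals. The text names all 9 members, every called gene of a pathway list and up to 4 with the largest ratios, and the 5 protein-coding genes nearest to GLI2. The members and the lists were chosen with earlier results of these data known. SKP1 and NANOG are not analysed here. Not every gene under this rule is reported here. Scripts were tested on simulated data with counting error only. Alternatives were scaling by median ratio or TMM factors, the authors' coverage, other minima, pseudocounts and folds, junction reads, and exon medians. Promoter windows are from RefSeq on GRCh38.p14 and the transcript from GENCODE 29. No coordinate was converted between builds. TMM factors came from edgeR 4.0.16 in R 4.3.3. All else was computed in Python 3.11.15 (scipy 1.17.1, numpy 2.4.6, pandas 2.3.3) and drawn with matplotlib 3.10.9.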

Additional observations from a re-analysis of the deposited data

How the results depend on the processing

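No paired analysis was possible because each line has 1 library, and for the same reason none could be left out. None of the 6 members with at least 100 reads changed direction under any alternative run. Median-ratio and TMM scaling moved all log2 ratios by -0.03 and -0.05. Under both and under the authors' coverage, 1 receptor gene (against 0) and 2 cilium genes (against 1) were lower at 2-fold. With at least 500 reads, 220 genes were higher and 299 lower, 1 member was higher, and 2 target genes were lower (against 3). With no minimum, 968 were higher and 858 lower, and 2 target genes were higher (against 1) and 4 lower. At 4-fold, 48 genes were higher and 135 lower, 1 member was higher and 1 lower, and 0 ligand genes were lower and 0 target genes higher. By junction reads scaled by their own total, 16 in MIP/5FU and 2 in MIP101, the log2 ratio of GLI2 was 3.66. By that measure it was 2.34 for GLI1, -0.98 for PTCH1, under the 2-fold line, and 0.94 for IHH, on 1 read in each library, against -0.12 by all reads. With the scaling by gene reads kept, added after seeing the data, these were 3.59 for GLI2, 2.27 for GLI1, -1.05 for PTCH1 and 0.87 for IHH. The causes were not tested. On exons 1 to 3 alone, an alternative chosen after seeing the data, the log2 ratio of HHIP was -1.08 (-3.70 to 0.62). Exon medians used regions with at least 50 read equivalents, which for GLI1 and GLI3 was 1 region each. Depth limits SMO, SHH and IHH, whose ratios cannot be told from no change.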
